A study of Mus musculus with 586 samples.

Results

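The nuclear genes of the respiratory chain were followed through gastrulation in the mouse embryo. They were the genes listed in all 18 tables whose symbols carry the stems of the subunits of complex I (Nduf followed by a, b, c, s or v and a digit), complex II (Sdha to Sdhd), complex III (Uqcr), complex IV (Cox4 to Cox8) and ATP synthase, complex V (Atp5). That rule found 84 of 23361 genes: 37 of complex I, 4 of complex II, 8 of complex III, 18 of complex IV and 17 of complex V. It uses names alone, so it leaves out subunits with other symbols, such as Cyc1 and Ndufab1, and it keeps 2 genes, Atp5s and Atp5sl, that RefSeq lists as Dmac2l and Dmac2 and that are not subunits of the ATP synthase core. Ndufa4, counted here by its symbol with complex I, is now regarded as a subunit of complex IV.

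The respiratory chain sits in the inner mitochondrial membrane. Complexes I and II pass electrons from NADH and succinate to ubiquinone, complex III passes them to cytochrome c and complex IV to oxygen, and ATP synthase uses the proton gradient that complexes I, III and IV build. Each complex other than II also contains subunits made from mitochondrial DNA, which the tables do not list, so the values describe the nuclear share of the chain. Several complex IV subunits exist as pairs of isoforms from separate genes, with a widely expressed member and a restricted one (in adult tissues, Cox7a1 and Cox6a2 in heart and muscle, Cox6b2 in testis, Cox4i2 in lung). The epiblast after implantation is known for strong glycolysis.

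The libraries were made by Geo-seq, in which small groups of cells are cut by laser from cryosections of an embryo and sequenced by a single-cell protocol. All embryos were C57BL/6, the labels give no treatment or altered allele, and they number the embryos within each stage, so an embryo is the replicate. Values were used from 2 embryos at E5.5 (22 libraries), 2 at E6.0 (22), 6 at E6.5 (109), 2 at E7.0 (101) and 6 at E7.5 (219), 473 libraries in all. The region codes are read as in the published atlas: A and P are the anterior and posterior epiblast (at E7.5 the ectoderm and the streak side), EA and EP the anterior and posterior endoderm, and M, MA and MP the mesoderm. Laser capture takes whatever lies in the cut, and in such samples fewer cells of a type and less RNA per cell cannot be told apart. In the tests, regions of an embryo were compared in the same sections. Levels and shares by region were instead taken over all sections of a region in an embryo, and these were not matched between regions.

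The libraries differed in how much they detected, from 2683 to 11319 genes at 1 FPKM or more (median 8949), and the sum of FPKM ran from 53064 to 1806706, so the scale of a library can move all genes together. FPKM (fragments per kilobase of transcript, scaled to the library's mapped fragments) are the authors' values; member counts are therefore given on these values as deposited and, in most comparisons, again after each library was rescaled to an equal median of 3974 widely detected genes. Doubt attached to 26 libraries, 22 with under 5000 genes at 1 FPKM and 4 in which a single gene took over 50% of the sum. The read depth behind an FPKM value was not analysed here. Among the markers, the 8 visceral endoderm genes summed to 1036 to 5437 FPKM in endoderm (6 embryos, E6.5 to E7.5). In epiblast of those embryos they summed to 49.2 to 114 FPKM. At E5.5 these genes summed to 452 to 921 FPKM in A and 508 to 726 FPKM in P, and at E6.0 to 151 to 491 and 132 to 538 FPKM. The 5 primitive streak genes summed to 270 to 1118 FPKM in P at E7.5, against 4.48 to 44.3 FPKM in A.

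Promoter sequences were looked up for all 84 genes in RefSeq (GRCm38.p6, from 250 bases before to 50 bases after the annotated start), and 69 were found. Those not found included Atp5a1, Cox4i1, Cox4i2, Cox6a2, Cox6c, Cox8c, Ndufa2, Ndufa4l2, Ndufb9, Ndufs1, Sdhc, Uqcrb, Uqcrc2 and Uqcrq. The motifs, searched on both strands, were that of NRF1 (GCGCA and GCGC with any 1 base between them), that of the ETS family that includes GABP (CCGGAAG), that of YY1 (AAGATGGCG), the CCAAT box (CCAAT) and the TATA box (TATAAA). An ETS match and a YY1 match can share the letters AAG. NRF1, GABP and YY1 are known activators of nuclear genes for mitochondria. The NRF1 letters stood in 16 of the 69 promoters (23.2%), among 4.78% of 27025 promoters in the table. The ETS letters stood in 15 (21.7%, among 9.12% of all promoters) and the YY1 letters in 7 (10.1%, among 1.49%). The CCAAT box stood in 31 (44.9%, among 37.9%) and the TATA box in 7 (10.1%, among 14.2%). The median GC content was 57.3% in the chain's promoters and 52.7% in all. These matches describe the letters in the windows and do not show that a factor binds.

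The full windows reach 50 bases past the start, so a match in them can lie after it. NRF1 letters were found in the full windows of Sdha, Sdhd, Uqcrc1, Cox6a1, Ndufa5, Ndufa6, Ndufa8, Ndufa11, Ndufb4, Ndufs5, Ndufs6, Atp5g2, Atp5g3, Atp5h, Atp5k and Atp5o. ETS letters were found in those of Sdhb, Uqcr11, Uqcrh, Cox6b1 and Cox8a among others. YY1 letters stood in the full windows of Atp5j2, Atp5sl, Ndufa9, Ndufc1, Ndufs4, Ndufs6 and Ndufs7. The 250 bases before the start are printed 5′ to 3′ for Cox7a1 and Cox6b2, 2 of the restricted isoforms whose levels turned out to differ between regions, beside their widely expressed partners, and for 3 widely expressed genes with NRF1 letters. The windows are numbered on GRCm38.p6. Capitals mark matches to the NRF1, ETS, YY1, CCAAT and TATA letters on either strand, so ATTGG is a CCAAT box and CTTCCGG an ETS match on the opposite strand.
Cox7a1 promoter, chr7:30183921-30184170, plus strand: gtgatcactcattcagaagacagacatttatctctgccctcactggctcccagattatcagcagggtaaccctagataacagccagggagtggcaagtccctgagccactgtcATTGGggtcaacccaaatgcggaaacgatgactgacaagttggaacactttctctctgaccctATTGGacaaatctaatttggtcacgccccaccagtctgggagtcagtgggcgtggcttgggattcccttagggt
Cox7a2 promoter, chr9:79759854-79760103, minus strand: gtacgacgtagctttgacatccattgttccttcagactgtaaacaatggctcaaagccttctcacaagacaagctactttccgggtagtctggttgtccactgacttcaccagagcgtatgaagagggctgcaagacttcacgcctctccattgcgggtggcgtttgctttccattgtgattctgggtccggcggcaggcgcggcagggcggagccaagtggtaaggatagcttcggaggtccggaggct
Cox6b2 promoter, chr7:4753095-4753344, minus strand: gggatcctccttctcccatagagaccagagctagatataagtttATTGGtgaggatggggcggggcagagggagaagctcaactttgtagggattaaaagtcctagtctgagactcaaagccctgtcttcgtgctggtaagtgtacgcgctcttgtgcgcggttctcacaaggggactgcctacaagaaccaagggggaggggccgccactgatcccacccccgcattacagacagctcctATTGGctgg
Cox6b1 promoter, chr7:30626115-30626364, minus strand: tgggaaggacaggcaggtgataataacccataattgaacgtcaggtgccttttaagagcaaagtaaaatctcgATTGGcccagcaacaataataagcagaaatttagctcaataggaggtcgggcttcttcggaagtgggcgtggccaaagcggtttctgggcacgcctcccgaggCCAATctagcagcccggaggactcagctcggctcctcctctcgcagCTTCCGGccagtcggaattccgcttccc
Cox6a1 promoter, chr5:115348959-115349208, minus strand: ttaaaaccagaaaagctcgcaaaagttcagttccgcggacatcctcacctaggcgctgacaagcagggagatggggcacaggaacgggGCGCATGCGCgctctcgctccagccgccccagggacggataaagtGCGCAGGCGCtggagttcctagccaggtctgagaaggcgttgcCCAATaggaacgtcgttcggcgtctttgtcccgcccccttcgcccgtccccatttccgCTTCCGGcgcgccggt
Atp5k promoter, chr5:108434400-108434649, minus strand: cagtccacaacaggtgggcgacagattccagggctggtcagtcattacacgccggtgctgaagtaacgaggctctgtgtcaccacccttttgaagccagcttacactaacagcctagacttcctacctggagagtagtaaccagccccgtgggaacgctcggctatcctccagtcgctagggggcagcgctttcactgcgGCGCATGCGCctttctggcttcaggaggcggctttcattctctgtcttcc
Sdha promoter, chr13:74350241-74350490, minus strand: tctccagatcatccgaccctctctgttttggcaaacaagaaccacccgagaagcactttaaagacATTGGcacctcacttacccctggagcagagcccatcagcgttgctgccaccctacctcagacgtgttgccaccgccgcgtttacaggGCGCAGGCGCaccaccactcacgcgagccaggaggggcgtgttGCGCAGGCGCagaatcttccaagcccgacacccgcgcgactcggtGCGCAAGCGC
In the windows shown, Cox7a1 and Cox6b2 held CCAAT boxes as their sole matches and Cox7a2 none. Cox6b1 held CCAAT boxes and an ETS match, Cox6a1 NRF1, CCAAT and ETS matches, Atp5k an NRF1 match, and Sdha a CCAAT box followed by repeated NRF1 matches.

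Most of the chain was expressed at high level throughout. Over the 473 libraries 67 of the 84 genes stood among the 1000 highest of all genes, 72 reached 1 FPKM in at least 450 libraries and 37 did so in every library. In levels per length, the median member had a mean of 270 FPKM. Complex III stood highest by its median (641 FPKM), ahead of complex V (416), complex IV (356), complex I (239) and complex II (78.1). Many small subunits have processed pseudogenes in the mouse genome, and reads shared with these cannot be told apart here.

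Levels differed widely within each complex. In complex IV the leading genes were Cox7c, a small membrane subunit (1539 FPKM, rank 47 among all genes), and Cox6b1, which faces the intermembrane space (971 FPKM). In complex III they were Uqcr11 and Uqcr10, small membrane subunits (1275 and 936 FPKM), whereas the core proteins Uqcrc1 and Uqcrc2 had 91.2 and 41.5 FPKM and the Rieske iron-sulfur protein Uqcrfs1 had 77.5 FPKM. In complex V the membrane subunit Atp5k had 1187 FPKM and the catalytic β subunit Atp5b 332 FPKM. In complex I Ndufa4 and Ndufa3 had 989 and 869 FPKM, and Ndufs1, its largest iron-sulfur subunit, 13.9 FPKM. In complex II the iron-sulfur subunit Sdhb had 143 FPKM, the membrane anchors Sdhd and Sdhc 110 and 46.3 FPKM, and the flavoprotein Sdha 31.2 FPKM. The lowest were complex IV isoforms: Cox6a2, the muscle form of Cox6a1, was listed at 0 in 468 of 473 libraries, and Cox6a2 and Cox8b were under 1 FPKM in the mean of every stage and region.

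**Figure D1:**
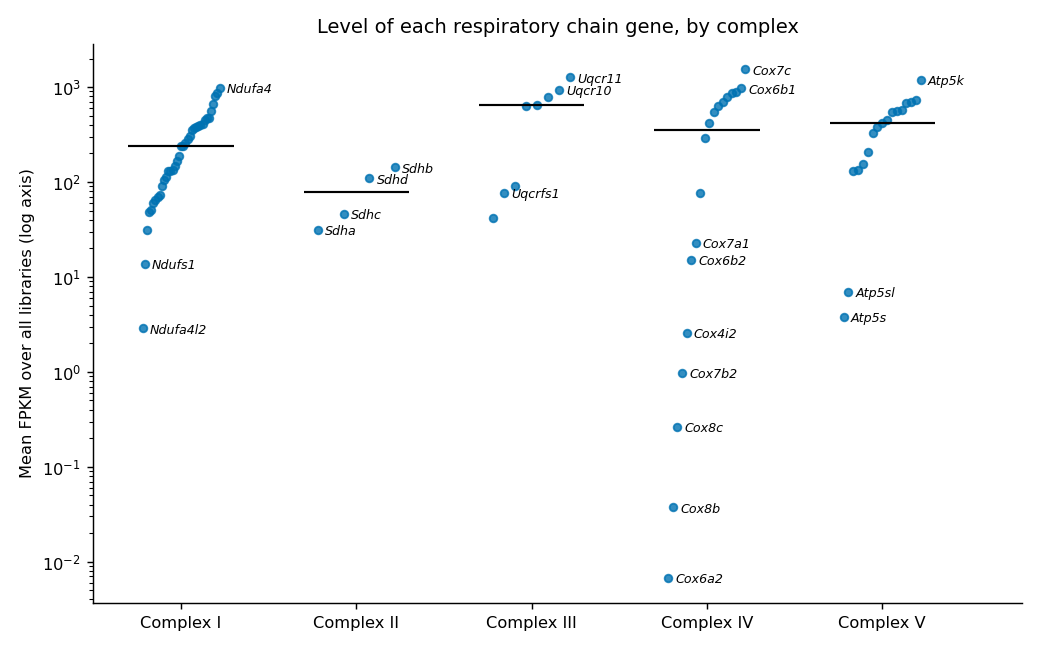
Mean FPKM of each respiratory chain gene over 473 libraries (log axis), by complex; each point is a gene and the bar is the complex's median. Most genes lie above 100 FPKM, and the genes under 1 FPKM are the complex IV isoforms Cox7b2, Cox8c, Cox8b and Cox6a2.

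The share of each library's FPKM sum taken by the members together differed between stages and libraries. At E5.5 embryo means of P held 8.12 and 8.84% and those of A 7.71 and 8.28%. At E6.0 P held 5.54 and 6.91% and A 5.75 and 7.45%, in each region below both E5.5 embryos. Embryo means of A held 5.77 to 8.82% at E7.5 (median 7.32%) and 5.23 to 8.63% at E6.5 (median 6.86%). At E6.5 embryo means of EA held 4.95 and 6.90%, and those of P 5.30 to 8.69%, which overlap. In 1 embryo each, EA/EP at E6.5 held 3.05% and VE at E6.0 held 4.90%.

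The restricted isoforms were a small part of their pairs, and that part differed between regions. Each share is taken over all sections of a region in an embryo. Neither sections nor embryos were always matched between regions: at E6.5, EA came from 2 embryos and A from 6. Cox7a1 averaged 22.9 FPKM over all libraries (listed at 0 in 65) and its partner Cox7a2 626 FPKM. In EP, Cox7a1 reached 4.45% of the FPKM of Cox7a2 in both E6.5 embryos, 1.63 and 4.25% in the E7.0 embryos and 3.44 and 4.54% in the E7.5 embryos. In EA of the same embryos it was 11.0 and 11.3%, 5.20 and 10.7%, and 5.52 and 5.68%, so that EP lay below EA at each stage without overlap. In P it was 1.24 to 2.54% at E7.5 and 2.42 to 5.01% at E6.5; in A it was 2.11 to 4.85% and 2.22 to 6.39% at those stages. MP held 0.905 and 2.43% and MA 2.02 and 2.04% at E7.5. A share of this kind does not depend on the scale of a library.

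Cox4i2, which replaces Cox4i1 in the regulatory subunit of complex IV and is known from adult lung and from cells at low oxygen, was rarer than Cox7a1, Ndufa4l2 and Cox6b2. It lies on chromosome 2, 152754173 to 152765037 (GRCm38, plus strand). It averaged 2.57 FPKM over all libraries and was listed at 0 in 220 of them, whereas Cox4i1 averaged 549 FPKM. At E7.5 Cox4i2 was 0.982 and 1.06% of Cox4i1 in MA, 0.971 and 1.40% in MP and 0.596 to 0.994% in P. In the same stage it was 0.273 and 0.323% in EP and 0.0763 and 0.159% in EA, below all mesoderm and P embryos. In A it ran from 0.227 to 0.876% and overlapped P.

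Ndufa4l2, a relative of Ndufa4 known as a target of the hypoxia response, averaged 2.87 FPKM and was listed at 0 in 162 libraries. It was 0 and 0.0194% of Ndufa4 in EP at E6.5 and listed at 0 in EA of both embryos, against 0.174 to 0.826% in P and 0.192 to 0.564% in A. In EP that gap was not seen later: at E7.0 EP held 0.0471 and 0.579%, against 0.380 and 0.552% in P. The E7.5 embryos had 0.0645 and 0.199% in EP, against 0.0647 to 0.303% in P. In EA the gap was still there at E7.0, with 0.0589 and 0.250%, against 0.255 and 0.288% in A. At E7.5 EA held 0.0813 and 0.111%, within the 0 to 0.295% of A. Cox6b2 at E7.0 was 0.641 and 1.72% of Cox6b1 in EA, against 2.06 and 3.35% in A, above both EA values. At the other stages EA and A did not part: EA held 0.182 and 11.3% at E6.5 and 0.923 and 1.28% at E7.5, against 1.23 to 2.21% and 0.436 to 2.45% in A.

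**Figure D2:**
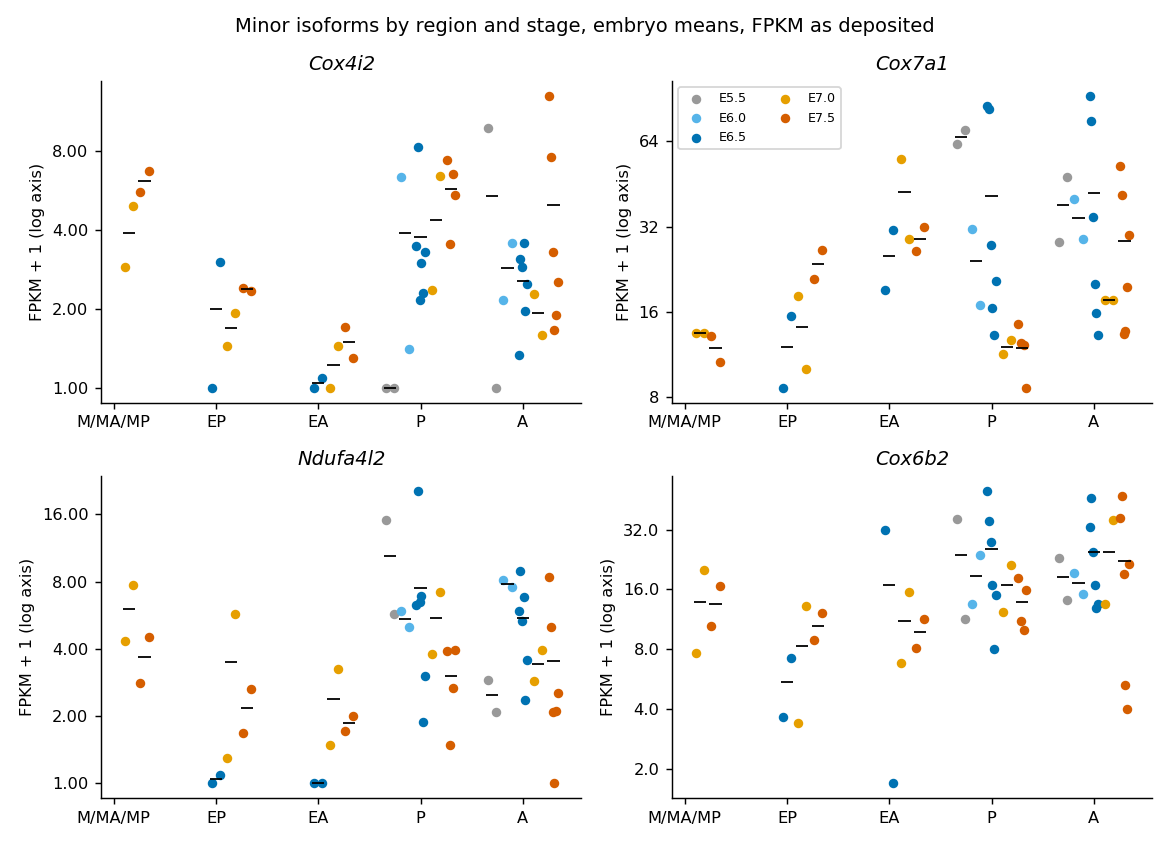
Embryo means of FPKM + 1 (log axes) of Cox4i2, Cox7a1, Ndufa4l2 and Cox6b2 in mesoderm (M, MA or MP), EP, EA, P and A, coloured by stage; each point is an embryo and each bar the mean of a stage. At E7.5 Cox4i2 is higher in every mesoderm and P embryo than in EP or EA, and at E7.0 Cox7a1 is higher in both EA embryos than in any other region shown. Means are over all sections of a region, which are not matched between regions.

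Along the anterior to posterior axis of the epiblast, members passed at E5.5 and at E7.5 and none passed at E6.0, E6.5 or E7.0. P minus A was tested in 11438 genes, 82 of them members, in 2, 2, 6, 2 and 4 embryos from E5.5 to E7.5, with limma on within-embryo differences of log2(FPKM + 1) and p-values adjusted by the Benjamini-Hochberg method over all genes tested (threshold 0.05). The filter kept genes with a mean of 1 FPKM in at least 1 stage and dropped the 2 lowest members. At E6.5, with 6 embryos, no member passed (0.586% of all genes tested were higher in P and 0.140% lower), and 0 members had an unadjusted p under 0.05. At E6.0 no member and no gene passed (0.00% of genes), with 1 member higher and 25 lower at an unadjusted p under 0.05 (1 and 3 with equal medians). At E7.0 no member passed (2.92% of genes), with 4 higher and 0 lower at an unadjusted p under 0.05. The median difference at E6.5 was -0.01 over the respiratory chain genes and over all genes tested alike.

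At E7.5, 12 members were higher in P than in A and 1 was lower, among 10.4% of all genes tested higher and 3.44% lower. The median difference was 0.21 over the respiratory chain genes and 0.15 over all genes tested. With equal medians 3 members were higher and 3 lower (5.60% and 4.98% of genes), and both medians were within 0.01 of 0. Complex I had 6 higher of 37 tested, complex III 3 of 8 and complex V 3 of 17.

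Uqcrc2, a core protein of complex III, had log2 levels of 6.12, 4.63, 5.73 and 5.98 in P of E7.5 embryos 3 to 6, against 5.54, 3.65, 4.99 and 5.21 in A. P was the higher side in each embryo, while embryos differed among themselves by more than that. The difference was 0.77 (SE 0.13, limma adjusted p = 0.000736) and 0.54 with equal medians (adjusted p = 0.00217). Ndufb4, an accessory subunit of complex I, had 9.10, 8.71, 8.86 and 8.83 in P, against 8.49, 8.13, 8.06 and 8.35 in A, and every P value lay above every A value. Its difference was 0.62 (SE 0.10, adjusted p = 0.000467; 0.38 and adjusted p = 0.0248 with equal medians). Ndufs4, a late-assembled subunit of complex I, was higher by 0.84 in P (SE 0.18, adjusted p = 0.00423; 4 of 4 embryos; 0.61 and adjusted p = 0.0164 with equal medians), but did not pass with the doubtful libraries left out (adjusted p = 0.0673). These 3 genes were the members higher in P on both scales; the passing members of the deposited scale also included Ndufs5 (0.97, adjusted p = 0.0331), Ndufv1 (0.61), which holds the flavin of complex I, and Uqcrb (0.57), none of which passed with equal medians. The count of members that passed was 5 without embryo 4 and 6 without embryo 5.

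Cox7a1 was the member that fell in P at E7.5. Its log2 levels were 3.58, 1.31, 2.92 and 1.32 in P of embryos 3 to 6, against 3.44, 3.35, 3.56 and 4.84 in A. P was lower in 3 of 4 embryos. The difference was -1.51 (SE 0.43, adjusted p = 0.0245) and -1.74 with equal medians (adjusted p = 0.012). Without embryo 6 it was -0.85 (adjusted p = 0.182) and without embryo 4 -1.34 (adjusted p = 0.106), so the call rests on these embryos. Cox7a2l, a factor that joins complexes III and IV, and Cox7c passed as lower with equal medians alone (-0.36 and -0.32). P and A of embryos 4 to 6 were compared in 3 sections each. Streak and mesoderm markers moved with these differences: all 5 streak genes and all 6 mesoderm genes tested were higher in P, the mesoderm genes summing to 22.8 to 245 FPKM in P and 1.26 to 13.7 FPKM in A. Of 6 epiblast genes 5 were lower in P and 1 higher. Their sum was nonetheless higher in P in 3 of 4 embryos, at 98.8 to 401 FPKM in P and 96.8 to 460 FPKM in A. Trophoblast genes summed to 21.6 to 49.5 FPKM in P and 1.31 to 4.61 FPKM in A, and visceral endoderm genes to 85.4 to 293 FPKM in P and 67.3 to 174 FPKM in A, both higher in P in 4 of 4 embryos. Definitive endoderm genes were lower in P in 4 of 4, at 18.2 to 88.1 FPKM in P and 109 to 355 FPKM in A. P detected 7695 to 9565 genes and A 7043 to 9374, more in P in 4 of 4. The part of these lists and of depth in the result was not tested.

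At E5.5, 22 members were higher in P and none lower, among 12.5% of genes higher and 2.62% lower, with a median of 0.38 over the respiratory chain genes and 0.17 over all genes tested. With equal medians 7 were higher and 3 lower (8.89% and 5.93% of genes). Complex I contributed 15 of the 22. In complex II, Sdhb and Sdha went opposite ways. Sdhb was lower in P by -0.82 with equal medians (limma adjusted p = 0.000918). With the doubtful libraries left out its difference was -0.69 (adjusted p = 0.0064), but as deposited with all libraries in it did not pass. Sdha (chromosome 13, 74322254 to 74350280, minus strand) had log2 levels of 5.48 and 5.55 in P of the 2 embryos, against 1.69 and 4.11 in A. P was the higher side in both and A of embryo 1 was low. The difference was 2.61 (SE 0.34, adjusted p = 9.82e-05; 2.42 and adjusted p = 0.000196 with equal medians). Ndufs3 differed by 1.42 (adjusted p = 0.0106), with 6.20 and 6.08 in P, against 3.50 and 5.94 in A; without embryo 1 its difference was 0.14. P detected 5714 and 6965 genes and A 5024 and 6429 in these embryos, and decidua and blood genes summed to 4.65 and 40.9 FPKM in P and to 325 and 47.6 FPKM in A. Visceral endoderm genes summed to 508 to 726 FPKM in P and 452 to 921 FPKM in A, higher in P in 1 of 2 embryos. The part of depth and of these tissues in the result was not tested. The spread came from all stages: fitted on the E5.5 embryos alone, 2 members passed, and with the doubtful libraries left out 40 did.

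Between the 4 E7.5 and the 6 E6.5 embryos, P minus A itself changed in 3 members, all upward (3.09% of genes changed upward and 0.944% downward). They were Uqcrc2 (change 0.68, adjusted p = 0.0317), Uqcrb (0.60, adjusted p = 0.0286) and Ndufb4 (0.59, adjusted p = 0.014). With equal medians none passed (2.14% and 1.46% of genes), with 4 members up and 3 down at an unadjusted p under 0.05.

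**Figure D3:**
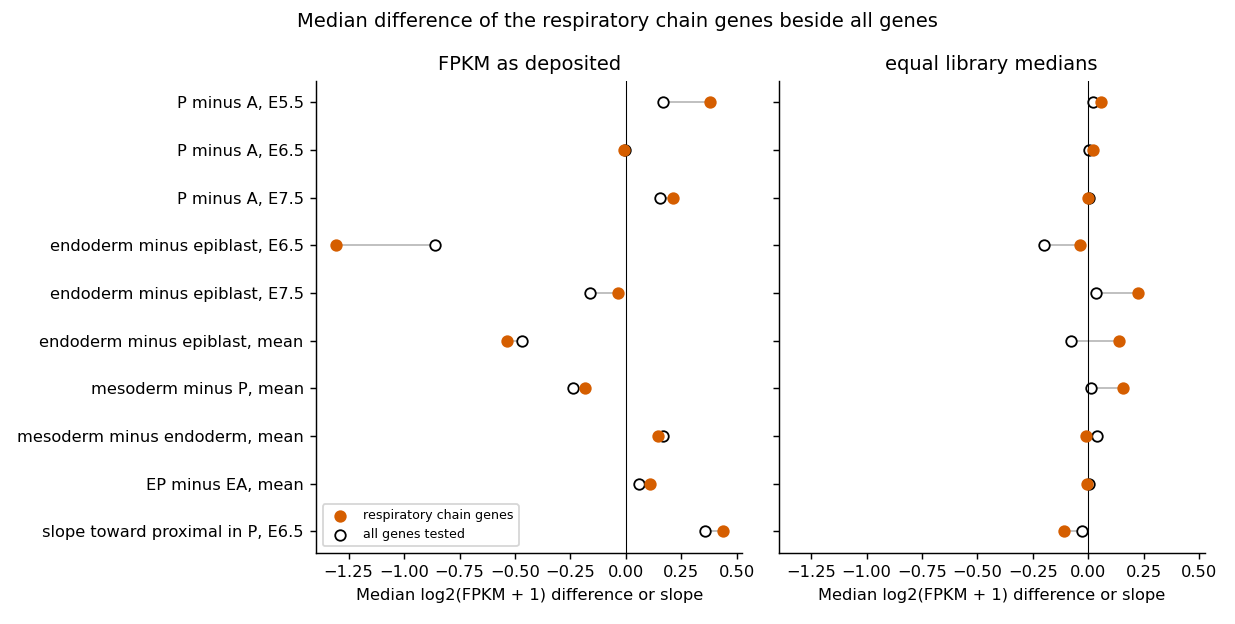
Median difference in log2(FPKM + 1) over the respiratory chain genes (filled) and over all genes tested (open) in each comparison, on FPKM as deposited (left) and with equal library medians (right); the last line of points is the slope from the most distal to the most proximal section. Endoderm minus epiblast moves most between the scales: its mean over stages for the chain is -0.53 as deposited and 0.14 with equal medians.

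Endoderm differed from epiblast more than any other pair of regions, and the direction for the chain as a whole depended on the scale. EA and EP were compared with A and P of the same sections in 2 embryos each at E6.5, E7.0 and E7.5, over 10332 genes with 81 members. On FPKM as deposited, no member was higher and 62 were lower in the mean over stages, among 10.6% of genes higher and 58.2% lower; the median was -0.53 over the respiratory chain genes and -0.47 over all genes tested. With equal medians 32 members were higher and 20 lower, among 19.5% and 26.3% of genes, with medians of 0.14 and -0.08.  The counts differed by stage: 77 members were lower in the E6.5 embryos (62.0% of genes; median -1.31 against -0.86 in all genes tested), 25 were lower in the E7.0 embryos (27.3%), and 1 was higher and 2 were lower in the E7.5 embryos (8.80% and 10.3%). With equal medians those counts were 15 higher and 22 lower (11.3% and 23.2%), 9 and 3 (10.0% and 8.41%), and 8 and 0 (9.09% and 3.65%). Endoderm libraries at E6.5 detected 5199 and 6865 genes and the epiblast ones 7910 and 9215; at E7.5 both lay between 8880 and 9182.

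Some members moved the same way on both scales. Sdhb, the iron-sulfur subunit of complex II, had log2 levels of 3.45 and 4.70 in endoderm of the E6.5 embryos, 6.40 and 6.56 of the E7.0 embryos and 6.99 and 6.60 of the E7.5 embryos, against 6.64, 6.98, 7.34, 7.60, 7.30 and 7.14 in epiblast of the same embryos. Endoderm was lower in 6 of 6, with the widest gaps at E6.5. The mean difference was -1.38 (SE 0.15, limma adjusted p = 4.94e-08) and -0.74 with equal medians (adjusted p = 0.000847). Uqcrc1 had 3.40, 4.68, 5.54, 5.56, 6.02 and 5.82 in endoderm, against 6.09, 6.42, 6.34, 6.79, 6.69 and 6.67 in epiblast, lower in 6 of 6 by -1.33 (SE 0.16, adjusted p = 1.61e-07; -0.64 and adjusted p = 0.00225 with equal medians). All endoderm values of Uqcrc1 lay below all epiblast values. Ndufs3, a core subunit of complex I (-1.27; -0.68 with equal medians), the Rieske protein Uqcrfs1 (-1.23; -0.63), the membrane anchor Sdhc (-1.19; -0.61) and the stator subunit Atp5f1 of ATP synthase (-1.26; -0.61) fell likewise on both scales. Sdha (-0.95, adjusted p = 7.67e-06) passed on the deposited scale alone (-0.34, adjusted p = 0.0768 with equal medians).

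Other members stood level with epiblast as deposited and above it once medians were equal. Ndufa3, a small membrane subunit of complex I, had 8.55, 8.46, 9.38, 9.81, 9.83 and 9.44 in endoderm, against 8.50, 8.90, 8.76, 9.63, 9.13 and 9.49 in epiblast. The groups overlapped and 4 of 6 embryos were higher. Its difference was 0.18 (adjusted p = 0.23) as deposited and 0.90 (SE 0.11, adjusted p = 2.35e-05) with equal medians, where 6 of 6 embryos were higher. Ndufb4 likewise differed by 0.14 (adjusted p = 0.312) and by 0.86 (adjusted p = 7.67e-06). With equal medians Uqcrq (0.77), Cox6a1 (0.74), Ndufb11 (0.72), Atp5g3 (0.71), a gene of the rotor ring of ATP synthase, and Uqcr11 (0.64) also passed as higher. By complex, complex IV had 9 higher and 2 lower of 15 tested on that scale, complex V 7 and 3 of 17, complex III 4 and 3 of 8, complex I 12 and 10 of 37 and complex II 0 and 2 of 4.

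The members that rose and those that fell with equal medians differed in length and level. The 32 higher members had a median longest transcript of 892 bases and a median level of 655 FPKM; the 20 lower members had 1697 bases (19 with an annotated length) and 67.3 FPKM. Among genes with a longest transcript of at most 1000 bases and a mean of at least 100 FPKM, 18 of 32 members were higher and 1 lower (median 0.30), and of the 138 other genes of that class 40 were higher and 32 lower (median 0.05). Among longer genes at that level, 13 of 27 members were higher and 4 lower (median 0.23), against 58 and 156 of 354 other genes (median -0.20). Below 100 FPKM both long and short members ran the other way. Of 14 long members 0 were higher and 10 lower (median -0.47), against 1653 and 2192 of 8557 other genes (median -0.07). Of 7 short members 1 was higher and 4 were lower (median -0.52), against 78 and 102 of 327 other genes (median -0.08). The part of length and level in the members' split was not tested further.

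**Figure D4:**
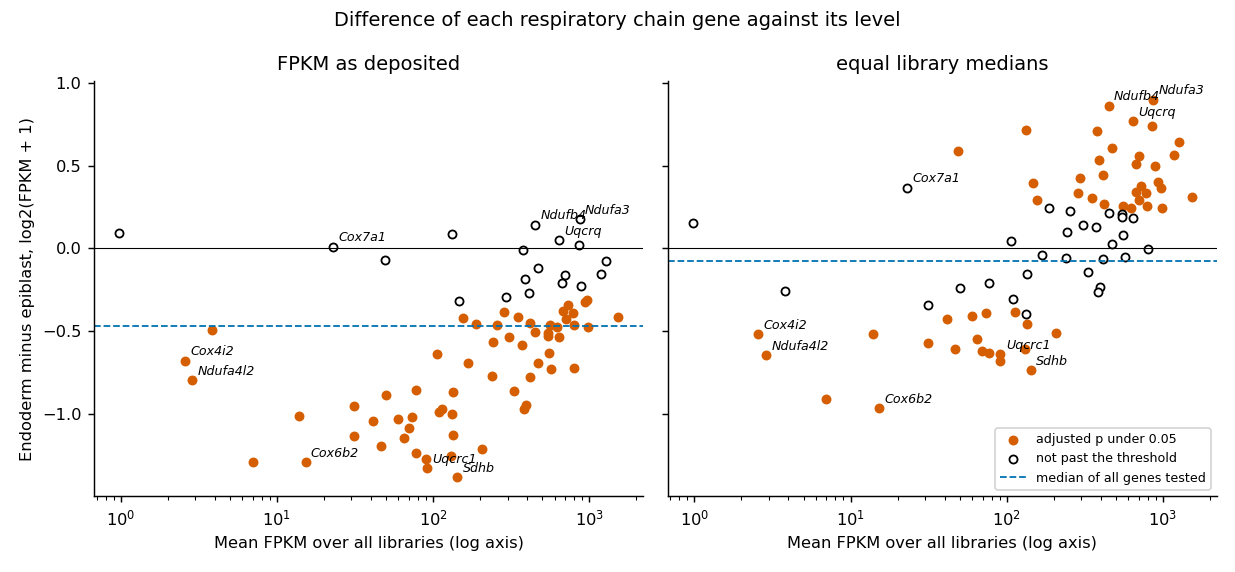
Endoderm minus epiblast, mean over E6.5, E7.0 and E7.5 in log2(FPKM + 1), of each respiratory chain gene against its mean FPKM (log axis), on FPKM as deposited and with equal library medians; filled points passed an adjusted p of 0.05 and the dashed line is the median of all genes tested. With equal medians, 18 of 32 short and 13 of 27 long members at 100 FPKM or more passed as higher. Below that level 4 of 7 short and 10 of 14 long members passed as lower.

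The restricted isoforms moved apart in endoderm. Cox7a1 had log2 levels of 2.08 and 3.02 in endoderm of the E6.5 embryos, 3.99 and 2.94 of the E7.0 embryos and 4.70 and 3.99 of the E7.5 embryos, against 3.69 and 3.76, 3.55 and 3.34, and 3.24 and 3.08 in epiblast. Endoderm was the higher side in both embryos at E7.5 and the lower in both at E6.5, without overlap at either stage. The difference was 1.19 at E7.5 (SE 0.29, adjusted p = 0.00558; 1.35 and adjusted p = 0.0123 with equal medians) and -1.17 at E6.5 (SE 0.29, adjusted p = 0.00143; -0.56 and adjusted p = 0.196 with equal medians). The change between these stages was 2.36 (SE 0.42, adjusted p = 0.000389; 1.91 and adjusted p = 0.0381 with equal medians). With the doubtful libraries left out the change was 0.72 (adjusted p = 0.496). The E7.5 difference was 0.91 without embryo 5 (adjusted p = 0.173), 1.47 without embryo 6 (adjusted p = 0.0544) and 1.19 without the doubtful libraries (adjusted p = 0.151).

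Cox4i2 had 0, 0.33, 0.36, 0.79, 0.32 and 0.94 in endoderm of the 6 embryos, against 0.79, 0.94, 0.60, 1.41, 1.63 and 1.46 in epiblast. It was lower in 6 of 6 and the levels were low on both sides. The difference was -0.68 (SE 0.15, adjusted p = 0.00051; -0.52 and adjusted p = 0.0136 with equal medians). Ndufa4l2 fell by 0.80 (adjusted p = 7.25e-05; -0.64 with equal medians) and was lower in 5 of 6 embryos. Cox6b2 differed by -1.29 (adjusted p = 0.00187; -0.97 and adjusted p = 0.0128 with equal medians), lower in 5 of 6, and did not pass without the E6.5 embryos (-0.92, adjusted p = 0.105). Their partners Cox4i1, Ndufa4 and Cox6b1 were at -0.53, -0.48 and -0.31 as deposited and at 0.19, 0.24 and 0.36 with equal medians.

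The change of endoderm minus epiblast, E7.5 minus E6.5, passed in 73 members, all upward, among 36.7% of genes upward and 0.319% downward. The count was 35 without E7.5 embryo 5. With equal medians 5 members changed upward (3.49% and 0.426% of genes). Markers of other tissue also stood higher in endoderm: 3 of 4 trophoblast and extra-embryonic ectoderm genes tested were higher and summed to 105 to 1088 FPKM, against 1.78 to 27.0 FPKM in epiblast, and both decidua and blood genes tested were higher, the list summing to 143 to 7563 FPKM, against 36.1 to 204 FPKM. Their part in the result was not tested. Endoderm and epiblast libraries at E7.0 and E7.5 came from 3 sections of each embryo.

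Mesoderm was compared with P of the same sections in 2 embryos at E7.0 (M) and 2 at E7.5 (MA and MP), over 9828 genes with 80 members. As deposited, no member was higher and 41 were lower, among 3.97% of genes higher and 39.8% lower, with a median of -0.18 over the respiratory chain genes and -0.24 over all genes tested. With equal medians 27 were higher and 2 lower, among 7.79% and 6.28% of genes, with medians of 0.15 and 0.01. On that scale 61 of 82 cytosolic ribosomal protein genes were higher and 1 lower, so the chain was not alone in this, and of the 138 other genes that were short and abundant, 64 were higher and 2 lower.

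Without E7.5 embryo 5 the count of lower members as deposited was 20. Streak genes summed to 59.1 to 184 FPKM in mesoderm and 295 to 1004 FPKM in P (5 of 5 lower). Of 7 visceral endoderm genes 4 were higher, summing to 99.6 to 458 FPKM in mesoderm and 70.2 to 240 FPKM in P. Mesoderm genes summed to 68.2 to 557 FPKM in mesoderm and 58.2 to 570 FPKM in P, higher in 3 of 4 embryos. Decidua and blood genes summed to 300 to 903 and 33.2 to 901 FPKM, higher in mesoderm in 4 of 4. Mesoderm detected 7449 to 9487 genes at E7.0 and P 8180 to 9631. At E7.5 these were 8948 to 9027 and 9394 to 9398, fewer in mesoderm in each embryo of both stages. The part of these lists and of depth in the mesoderm result was not tested.

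The 2 genes lower on both scales were Uqcrc1 and Sdhd. Uqcrc1 had 5.41, 6.34, 6.33 and 5.94 in mesoderm, against 6.32, 6.71, 7.10 and 6.69 in P, lower in 4 of 4 embryos by -0.70 (SE 0.10, adjusted p = 0.00333; -0.36 and adjusted p = 0.0363 with equal medians). Sdhd, which anchors complex II in the membrane, differed by -0.61 (SE 0.08, adjusted p = 0.00269; -0.26 and adjusted p = 0.0424 with equal medians). The widest difference as deposited was that of Ndufa10 (-0.78, adjusted p = 0.0119; -0.50 and adjusted p = 0.118 with equal medians). Among members higher with equal medians, Atp5g3 differed by 0.48 (adjusted p = 0.00251; 0.12 and adjusted p = 0.107 as deposited) and Atp5k by 0.43 (adjusted p = 0.0028; 0.08 and adjusted p = 0.2 as deposited). Cox4i2 was at -0.14 (adjusted p = 0.413) and Cox7a1 at 0.01 (adjusted p = 0.97), with mesoderm levels of Cox7a1 of 3.12, 3.66, 3.51 and 2.60, against 3.11, 3.53, 3.34 and 2.88 in P.

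Mesoderm against endoderm, in the same 4 embryos and 9910 genes with 80 members, set the isoforms apart most clearly. As deposited 12 members were higher and 3 lower, among 24.9% of genes higher and 14.5% lower; with equal medians 10 were higher and 12 lower (17.7% and 19.6%). The median was 0.15 over the respiratory chain genes and 0.17 over all genes tested as deposited, and -0.01 and 0.04 with equal medians. The count of members passing as deposited depended on the embryos: it was 54 without E7.0 embryo 1, 26 without E7.0 embryo 2, 4 without E7.5 embryo 5 and 2 without E7.5 embryo 6. All 8 visceral endoderm genes were lower in mesoderm, summing to 99.6 to 458 FPKM there and 2452 to 4852 FPKM in endoderm. Decidua and blood genes summed to 300 to 903 FPKM in mesoderm and 945 to 9812 FPKM in endoderm. Trophoblast and extra-embryonic ectoderm genes summed to 3.53 to 12.04 FPKM in mesoderm and 178 to 2955 FPKM in endoderm. Both of these lists were higher in endoderm in 4 of 4 embryos. The part of these tissues in the differences between mesoderm and endoderm was not tested.

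Cox4i2 had 0.95, 1.91, 2.11 and 2.24 in mesoderm, against 0.16, 0.39, 0.79 and 0.62 in endoderm, and every mesoderm value lay above every endoderm value. Its difference was 1.31 (SE 0.15, adjusted p = 0.00124; 1.14 and adjusted p = 0.0014 with equal medians). Ndufa4l2 had 1.68, 2.85, 1.30 and 1.81 in mesoderm, against 0.30, 1.54, 0.64 and 0.92 in endoderm, higher in 4 of 4 by 1.06 (adjusted p = 0.000899; 0.96 and adjusted p = 0.00277 with equal medians), with overlap between embryos. Cox6b2 had 2.59, 4.26, 3.24 and 3.81 in mesoderm, against 1.62, 3.42, 2.89 and 3.09 in endoderm, higher in 4 of 4 by 0.72 (adjusted p = 0.00635; 0.58 and adjusted p = 0.0217 with equal medians; adjusted p = 0.0788 as deposited without E7.5 embryo 6).

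Cox7a1 went the other way. It had 3.12, 3.66, 3.51 and 2.60 in mesoderm, against 4.07, 3.48, 4.19 and 4.23 in endoderm. Mesoderm was lower in 3 of 4 embryos, by -0.77 in the mean (adjusted p = 0.0369; -0.88 and adjusted p = 0.0163 with equal medians). Without E7.0 embryo 1 the difference was -0.49 (adjusted p = 0.132) and without E7.5 embryo 6 it was -0.53 (adjusted p = 0.198). Ndufa3 (-0.34, adjusted p = 0.0154; 4 of 4 lower) and Ndufb4 (-0.29, adjusted p = 0.0408) were the other members lower as deposited, and both were lower with equal medians too (-0.50 and -0.44). Without either E7.5 embryo, Ndufa3 did not pass (adjusted p = 0.205 and 0.212), nor did Ndufb4 (adjusted p = 0.275 without embryo 5 and 0.418 without embryo 6), which also missed the threshold with no filter on low values (adjusted p = 0.113). Ndufs3 (0.50), Sdhb (0.42) and Uqcrfs1 (0.47) rose in mesoderm on both scales (0.35, 0.27 and 0.34 with equal medians). Endoderm libraries enter this comparison and the one with epiblast, and P libraries enter the comparisons of P with A, of mesoderm with P and of endoderm with epiblast, so these are not independent of each other.

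Within the endoderm, EP was compared with EA in 2 embryos each at E6.5, E7.0 and E7.5, over 10147 genes with 80 members. Cox7a1 was the single member that passed, lower in EP, among 0.887% of genes higher and 0.611% lower. It had log2 levels of 1.36, 2.91, 3.39, 2.52, 3.90 and 4.13 in EP, against 2.80, 3.14, 4.75, 4.45, 4.47 and 4.32 in EA. EP was lower in 6 of 6 embryos, though the ranges overlapped between embryos. The difference was -0.96 (SE 0.20, adjusted p = 0.035). With equal medians it was -1.10 and did not pass (adjusted p = 0.149), and it did not pass without any of the E7.0 and E7.5 embryos (adjusted p 0.0783 to 0.346). With equal medians no member passed (0.335% of genes), with 2 higher and 5 lower at an unadjusted p under 0.05. Without E6.5 embryo 5, 5 members were higher in EP and 1 lower as deposited. Definitive endoderm genes summed to 49.5 to 469 FPKM in EP and 80.7 to 1234 FPKM in EA, lower in EP in all 6 embryos. At E7.0 decidua and blood genes summed to 3185 to 10524 FPKM in EP and 1778 to 9100 FPKM in EA. Trophoblast and extra-embryonic ectoderm genes summed to 255 to 3816 and 109 to 2095 FPKM there. Both lists were higher in EP in 2 of 2 embryos at E7.0, and in 4 and 3 of 6 over all stages. The part of these lists in the Cox7a1 difference was not tested.

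From the distal to the proximal end of P, Cox4i2 had an upward slope in every embryo of E6.0 and later, and it passed the test at E6.5 and E7.0. Slopes of log2(FPKM + 1) were taken over the sections of an embryo, with the distal end at 0 and the proximal end at 1, in 2, 2, 6, 2 and 4 embryos from E5.5 to E7.5 over 11628 genes with 82 members. In the most proximal section of P, Cox4i2 had 13.0, 24.2, 2.09, 5.20, 2.58 and 10.3 FPKM in E6.5 embryos 1 to 6, and it was listed at 0 in the most distal section of all 6. The slopes were 3.34, 4.75, 1.87, 2.22, 2.54 and 3.50, all upward. Their mean at E6.5 was 3.04 (SE 0.35, adjusted p = 1.89e-05; 2.51 and adjusted p = 0.000234 with equal medians), and Cox4i2 was the only member that passed at that stage, among 1.41% of genes upward and 0.120% downward (0.645% and 0.258% with equal medians). The slope was 1.42 at E6.0 (adjusted p = 0.235; adjusted p = 0.14 with equal medians), 2.64 at E7.0 (adjusted p = 0.0263; 0.353% of genes upward and 1.32% downward) and 1.76 at E7.5 (adjusted p = 0.0549; 1.03% of genes either way), and in P at E5.5 Cox4i2 was listed at 0 throughout. With equal medians it was 2.35 at E7.0 (adjusted p = 0.0367) and 1.19 at E7.5 (adjusted p = 0.277). In P of E7.5 embryo 4 the slope was 0.89, the lowest of that stage. At E7.0 it rested on embryo 2: without it the slope was 1.48 (adjusted p = 0.831). Under a filter of 5 FPKM Cox4i2 was not tested in P.

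In A, Cox4i2 sloped upward in all 6 E6.5 embryos (0.50, 2.70, 1.78, 2.50, 0.78 and 2.24; mean 1.75, adjusted p = 0.131; 0.0418% of genes were upward) and in the 3 E7.5 embryos with enough sections (1.87, 1.90 and 2.22; mean 2.00, adjusted p = 0.023; 1.62 and adjusted p = 0.0671 with equal medians), where 1.27% of 11972 genes were upward and 3.07% downward (0.810% upward with equal medians). Without any of these 3 embryos it did not pass (adjusted p 0.0992 to 0.189). In A at E5.5 Cox4i2 was listed at 0 except in section 5 of embryo 1, at 44.1 FPKM. That single library held its highest value in any A or P library. At E5.5, 5 members rose and 1 fell toward the proximal end in P (7.56% and 3.73% of genes) and 13 rose and 2 fell in A (5.20% and 2.77%). After E5.5 no member other than Cox4i2 passed in the fit of all stages. At an unadjusted p under 0.05, however, 20 members sloped upward in P at E6.5 and 53 of 82 at E7.5 (2 and 1 with equal medians), and 21 members passed in P when E6.5 was fitted alone. The difference between the slopes in P and in A was not tested. The respiratory chain genes as a whole had a median slope in P at E6.5 of 0.44, against 0.36 over all genes tested, and of -0.11 and -0.03 with equal medians. Streak and mesoderm markers rose along P as well at E6.5: the streak genes summed to 147 to 592 FPKM in the most proximal sections and 6.75 to 40.2 FPKM in the most distal ones, and the mesoderm genes to 40.8 to 271 FPKM and 2.57 to 9.32 FPKM, and their part in the Cox4i2 slope was not tested.

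**Figure D5:**
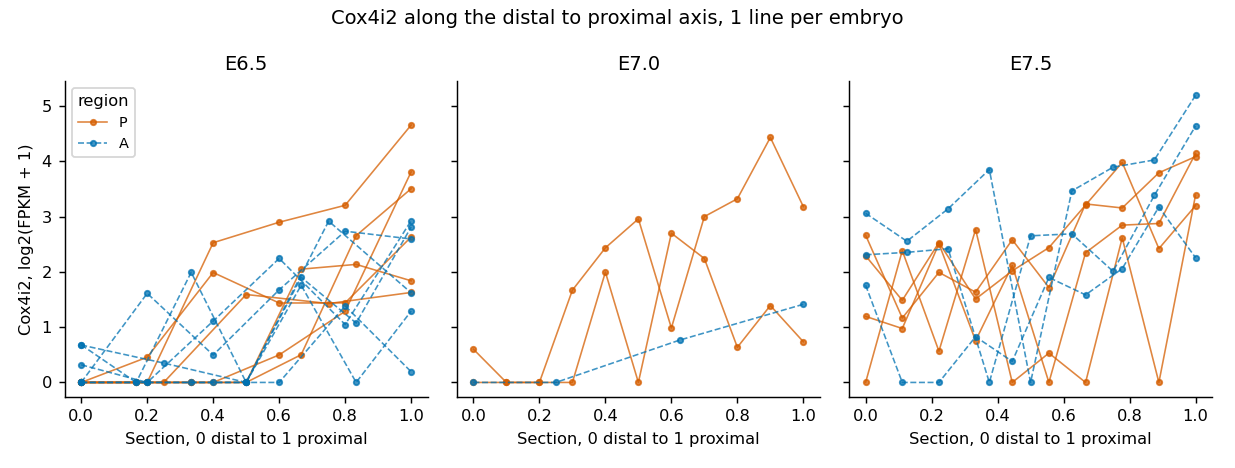
Cox4i2, in log2(FPKM + 1), by section from the most distal (0) to the most proximal (1), for P (solid) and A (dashed) at E6.5, E7.0 and E7.5; each line is an embryo. At E6.5 all 6 P lines start at 0 and end at 1.63 or higher.

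Levels at different stages are given as a description. The median over the respiratory chain genes of the embryo means in A was 7.77 at E5.5, 8.39 at E6.0, 8.35 at E6.5, 7.94 at E7.0 and 8.12 at E7.5 as deposited, and 8.16, 7.80, 7.85, 7.65 and 7.76 with equal medians. In P it was 8.46, 8.12, 8.36, 8.01 and 7.90 as deposited, and 8.53, 7.73, 7.89, 7.70 and 7.57 with equal medians. Overlap of embryos was checked between E7.5 and E6.5 alone. Between the 6 E7.5 and the 6 E6.5 embryos, 0 of 80 members had embryo means of A without overlap, on either scale, among 0.730% of 10415 genes higher and 0.672% lower (2.18% and 1.67% with equal medians). In P, with 4 and 6 embryos, 0 members were without overlap as deposited (4.13% of genes higher, 2.04% lower) and 1 was lower with equal medians (8.07% and 6.03%). The median difference in P, E7.5 minus E6.5, was -0.38 over the respiratory chain genes and -0.08 over all genes (-0.24 and 0.02 with equal medians). The embryos stand in separate tables, so no test was made across stages.

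Genes that work with the chain gave a wider picture of the same regions. In endoderm against epiblast, 70 of 76 mitochondrial ribosome genes were lower and 0 higher as deposited, and 41 were lower and 5 higher with equal medians, where the respiratory chain genes had 20 lower and 32 higher. Of all genes tested, 58.2% were lower and 10.6% higher as deposited, and 26.3% and 19.5% with equal medians. Of 25 genes of the TCA cycle and pyruvate dehydrogenase 22 were lower and 1 higher (9 and 2 with equal medians), of 20 of glycolysis 17 were lower and 2 higher (14 and 2), and of 38 respiratory chain assembly factors 32 were lower and 1 higher (13 and 3). Ldhb, a subunit of lactate dehydrogenase, was lower by -2.53 (adjusted p = 1.01e-11; -1.97 with equal medians). The mitochondrial ADP/ATP carriers split: Slc25a4 was higher in endoderm by 1.25 (SE 0.15, adjusted p = 1.49e-07; 1.97 with equal medians) and Slc25a5 lower by -1.35 (SE 0.12, adjusted p = 4.37e-09; -0.63 with equal medians), each in 6 of 6 embryos. Polg, the mitochondrial DNA polymerase, was higher by 1.66 (adjusted p = 5.76e-09; 2.17 with equal medians). In mesoderm against endoderm the carriers turned round, Slc25a4 at -0.76 (adjusted p = 0.0389; -0.92 and adjusted p = 0.0118 with equal medians) and Slc25a5 at 0.46 (adjusted p = 0.0262; 0.31 and adjusted p = 0.0163 with equal medians). There 28 of 76 mitochondrial ribosome genes were higher and 0 lower, beside 24.9% and 14.5% of all genes tested (21 and 3 with equal medians, beside 17.7% and 19.6%).

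In P against A at E7.5, 5 of 27 genes of the TCA cycle and pyruvate dehydrogenase were higher and 0 lower, 3 of 11 electron carriers and nucleotide exchange genes were higher and 0 lower, and 3 of 20 glycolysis genes were higher and 3 lower, beside 10.4% of all genes tested higher and 3.44% lower. With equal medians the counts were 1 and 0, 1 and 0, and 2 and 4, beside 5.60% and 4.98% of all genes tested. Mpc1, of the mitochondrial pyruvate carrier, was higher in P by 2.81 (SE 0.42, adjusted p = 0.000148; 2.70 and adjusted p = 0.00024 with equal medians; 4 of 4 embryos), and Ldhb by 1.02 (adjusted p = 0.000332; 0.79 with equal medians). Vdac3, a channel of the outer membrane, was higher by 0.67 (adjusted p = 0.00304; 0.44 and adjusted p = 0.0469 with equal medians). Slc25a4 and Slc25a5 were higher by 0.93 and 0.48 as deposited (adjusted p = 0.0317 and 0.0156) and did not pass with equal medians (0.70 and 0.25, adjusted p = 0.141 and 0.0556).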

How the data were processed

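Libraries of about 20 laser-cut cells each were read from 18 tables of FPKM, 1 per embryo. Per the submitters' processing notes, the authors used TopHat2 2.0.8b, Cufflinks 2.1.1 and the mm10 build; the deposited FPKM carry no read counts, so counting error and read depth could not be given. Columns were matched to samples by title: 473 libraries were used, and 111 columns matched no sample label and were not used. The values of E6.5 embryo 6 were deposited under a name that reads E6.0. They were placed by their columns and the sample labels, so this match is inferred. That embryo enters the E6.5 comparisons of endoderm with epiblast, EP with EA and P with A, and the E6.5 slopes. The region codes, which the labels do not spell out, are read as in the published atlas. No libraries held identical values.

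Levels are log2(FPKM + 1). Regions of an embryo were subtracted within the same section and averaged, so an embryo is 1 replicate, and slopes were fitted over at least 4 sections. The labels number separate embryos. limma 3.58.1 in R 4.3.3 (trend and robust settings, 1 coefficient per stage, 1 shared spread per gene) gave p-values, adjusted by Benjamini-Hochberg over every gene with a mean of 1 FPKM in at least 1 stage; "mean" weights stages equally. The script was tested on simulated data. Same-embryo P and A deviated together, with correlations of 0.660 to 0.889 at E6.5 (at most 0.549 between embryos) and 0.456 to 0.752 at E7.5 (at most 0.0379). These use FPKM as deposited, so a scale shared by the libraries of an embryo enters them. Deviations were taken from stage means of the same few embryos, which lowers the correlations between embryos. Regions were paired by embryo because they were cut from the same sections. Alternatives were equal library medians or sums, pseudocounts of 0.1 and 10, no filter or 5 FPKM, the 26 doubtful libraries left out, a stage alone, no block for the embryo, and each embryo left out. The members, lists, markers and named genes were chosen with earlier results of these data known. Named genes were up to 10 higher and 10 lower passing members of each comparison by size and up to 4 by p, the 2 highest of each complex, all of complex II, the isoform families, members under 1 FPKM throughout and up to 4 others per list by p; Atp5b was added after its values were seen. Motifs were searched with Python 3.11.15.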

Additional observations from a re-analysis of the deposited data

Results flagged for a closer look

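Of the members whose change between stages passed, 5 are given here, with 1 count. Cox7a1 and Sdhb were chosen by name from the larger number that passed in endoderm minus epiblast. Endoderm minus epiblast of Cox7a1 changed by 2.36, E7.5 minus E6.5 (2 embryos each; limma adjusted p = 0.000389), with both embryos higher at E7.5 and both lower at E6.5. Without the doubtful libraries the Cox7a1 change was 0.72 (adjusted p = 0.496), and as a share of Cox7a2 it was 11.0 and 11.3% in EA at E6.5, above the 2.22 to 6.39% of A. The difference of Sdhb changed by 2.31 (adjusted p = 0.000184), lower in all 4. The same change passed in 73 of the 81 members tested, and in 5 with equal library medians.

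P minus A changed between the 4 E7.5 and the 6 E6.5 embryos by 0.68 in Uqcrc2, 0.60 in Uqcrb and 0.59 in Ndufb4. None of the 3 passed with equal library medians (adjusted p 0.111, 0.307 and 0.272). No embryo stood outside the others of its group in the 18 series of values examined.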

How the results depend on the processing

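Counts are of members passing an adjusted p of 0.05, and the cause of a change between settings was not tested unless fewer genes or embryos entered. With equal library medians 10 passed in P minus A at E5.5, 6 at E7.5 and 0 for the change. For endoderm minus epiblast the counts were 52 in the mean (32 higher, 20 lower, so the balance turned), 37 at E6.5, 8 at E7.5 (all higher, turned) and 5 for the change. Mesoderm gave 29 against P (27 higher, turned) and 22 against endoderm (12 lower, turned), and EP minus EA gave 0. With equal sums the counts were 7 in P minus A at E7.5, 47 in endoderm at E6.5, 7 for its change, 23 in mesoderm against P, 23 against endoderm and 0 in EP minus EA. With no filter they were 12 and 7 in P minus A at E5.5 and E7.5 and 1 for its change, 1 in endoderm at E7.5 and 48 for its change, 26 and 6 in mesoderm against P and against endoderm, and 0 in EP minus EA. A pseudocount of 0.1 gave 1 in endoderm at E7.5 (higher, turned) and 0 in EP minus EA, and a filter of 5 FPKM gave 0 for the slope in P at E6.5. Without the doubtful libraries 40 passed in P minus A at E5.5, 0 in EP minus EA and 1 for the slope in A at E6.5. Fits of 1 stage alone gave 2 in P minus A at E5.5, 8 at E7.5 and 21 for the slope in P at E6.5, and without E6.5 the endoderm mean gave 31; the fit of E5.5 alone and the one without E6.5 were chosen after seeing the data. With no block that pairs regions by embryo, 0 passed in P minus A at E5.5 and E7.5, 32 in the endoderm mean, 36 at E6.5, 0 at E7.5, 0 and 2 in mesoderm against P and against endoderm, and 0 in EP minus EA.

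Leaving out 1 embryo at a time gave 0 to 10 in P minus A at E6.0, 5 to 19 at E7.5 and 0 to 9 for its change. It gave 0 to 4 in endoderm at E7.5, 35 to 74 for its change, 20 to 39 in mesoderm against P, 2 to 54 against endoderm and 0 to 6 in EP minus EA, where 5 of the 6 were higher. The slopes at E6.5 gave 1 to 3 in P and 0 to 1 in A. Cox6a1 in endoderm, at 0.02 with all embryos in, was -0.05 without E6.5 embryo 6 and -0.04 without E7.0 embryo 1, within a range of -0.079 without E7.5 embryo 5 to 0.12 without E7.5 embryo 6. Over all settings 752 values of single genes kept their direction and side of the threshold, 112 fell short of it, 36 newly passed and 3 turned round. Of the counts, 232 stayed within 1.5 times their value, 66 moved further and 6 turned round. Fewer than 3 embryos per stage in most comparisons, and FPKM without read counts, limit the precision.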
